A study of Mus musculus with 4 samples.

Results

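Nr4a1, Nr4a2, Nr4a3, Egr1, Egr2, Egr3 and Nab2 were taken by gene symbol from the 32285 genes of the count tables, and all 7 had a single entry. They were read in splenic T cells of C57BL6/J mice, sorted as CD3+CD4+ and stimulated for 6 hours with beads that carry antibodies against CD3 and CD28, which engage the T cell receptor and its costimulatory receptor. There were 4 single-cell RNA libraries made with the 10x Genomics 3′ chemistry: 1 female and 1 male library labelled Irf5-/- and 1 female and 1 male library labelled WT. All 4 received the same stimulus, and no unstimulated or other time point was analysed here. The sources used here do not give the number of mice behind a library or the part of Irf5 that is deleted, so p-values measure only the spread between these libraries, which may be technical. Counts are unique molecular identifiers (UMIs), each standing for 1 captured RNA molecule.

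The Nr4a genes encode orphan nuclear receptors, and the Egr genes encode zinc finger transcription factors that bind GC-rich DNA. Both families are immediate early genes, transcribed after T cell receptor signalling without need of new protein. Nr4a1 (Nur77) is widely used as a reporter of antigen receptor signalling, and Nr4a2 (Nurr1) and Nr4a3 (Nor1) bind related DNA elements. Egr1 follows the MAP kinase pathway through serum response factor, Egr2 and Egr3 are also driven by NFAT and are known for restraining activated T cells, and Nab2 encodes a corepressor that binds Egr proteins and is itself a target of them.

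The 250 bases upstream of a RefSeq transcription start (assembly GRCm38.p6) are shown for the Nr4a genes, whose RNAs were found in the same cells, and for Egr2, as the member of the other family with such a window. The starts lie just after chr15:101266596-101266845 for Nr4a1 (plus strand), just before chr2:57124004-57124253 for Nr4a2 (minus strand), just after chr4:48045055-48045304 for Nr4a3 (plus strand), and just after chr10:67537680-67537929 for Egr2 (plus strand, the most downstream of its starts). Capitals mark TGACG on either strand (CGTCA on the other), the core of the cAMP response element bound by CREB and ATF factors, the CArG box bound by serum response factor, and GCGGGGGCG on either strand, a site bound by Egr factors.
Nr4a1: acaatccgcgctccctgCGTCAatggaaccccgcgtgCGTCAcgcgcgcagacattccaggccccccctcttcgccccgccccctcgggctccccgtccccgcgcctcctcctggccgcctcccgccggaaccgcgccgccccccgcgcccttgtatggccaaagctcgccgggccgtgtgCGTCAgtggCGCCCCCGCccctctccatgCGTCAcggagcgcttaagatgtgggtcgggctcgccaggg
Nr4a2: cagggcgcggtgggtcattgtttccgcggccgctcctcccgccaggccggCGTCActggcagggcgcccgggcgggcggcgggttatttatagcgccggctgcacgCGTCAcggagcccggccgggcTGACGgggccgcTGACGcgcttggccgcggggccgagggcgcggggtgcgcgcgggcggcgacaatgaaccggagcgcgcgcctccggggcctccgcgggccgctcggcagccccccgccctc
Nr4a3: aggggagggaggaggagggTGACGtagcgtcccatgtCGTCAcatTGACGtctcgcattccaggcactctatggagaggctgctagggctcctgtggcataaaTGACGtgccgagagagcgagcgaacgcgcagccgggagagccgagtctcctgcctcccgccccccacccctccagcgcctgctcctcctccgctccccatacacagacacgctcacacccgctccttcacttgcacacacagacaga
Egr2: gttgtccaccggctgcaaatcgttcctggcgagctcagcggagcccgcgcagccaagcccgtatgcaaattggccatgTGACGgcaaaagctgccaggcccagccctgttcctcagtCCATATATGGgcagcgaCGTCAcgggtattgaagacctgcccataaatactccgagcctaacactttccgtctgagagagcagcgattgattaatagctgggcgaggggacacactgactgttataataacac

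Each of the 3 Nr4a windows held 4 copies of TGACG, a number found in 0.137% of 32851 promoter windows of this length, of which 17.8% held at least 1 copy. They began 233, 213, 69 and 40 bases before the start in Nr4a1, 200, 144, 123 and 111 in Nr4a2, and 231, 213, 205 and 147 in Nr4a3. The Egr2 window held 2 copies, a number that 3.9% of windows reach or exceed, and 1 CArG box, which 1.47% of windows hold. The Nr4a1 window also held 1 copy of GCGGGGGCG, which 2.57% of windows hold. The full cAMP response element TGACGTCA, which contains TGACG (1.55% of windows), AAAGGTCA, bound by Nr4a receptors (1.34%), and GCGTGGGCG, another Egr site (0.536%), were searched on both strands and had no match in these windows. The Nab2 window had no match to any of these motifs, and neither had the window of another Egr2 start, chr10:67535249-67535498. The Egr2 window chr10:67537316-67537565 held no TGACG and a different CArG box. A match describes the letters and not a bound site.

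The annotation of build GRCm38 placed Nr4a1 on chromosome 15 (101254269 to 101274795, plus strand), Nr4a2 on chromosome 2 (57106830 to 57124003, minus strand) and Nr4a3 on chromosome 4 (48045153 to 48086447, plus strand). Egr1 lay on chromosome 18 (34859823 to 34864984, plus strand), Egr2 on chromosome 10 (67535475 to 67542188, plus strand) and Egr3 on chromosome 14 (70077203 to 70082614, plus strand). Nab2 lay on chromosome 10 (127660918 to 127668568, minus strand) and was the only member to overlap other genes, sharing 40 bases with Stat6, 1646 with Gm16229 and 1668 with Nemp1. How the counting used strand is not given in the sources used here, so Nab2 values are uncertain to that extent.

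Cells with at least 2000 UMIs, at least 500 genes and at most 10% mitochondrial UMIs numbered 6178 and 6543 in the female and male libraries labelled knockout, and 1814 and 4565 in the female and male libraries labelled wild type. Median UMIs per cell ran from 5104.5 to 9661, and 2 to 14 cell barcodes were shared by any pair of libraries. Irf5 itself went against the labels: it had 293 and 432 UMIs in the libraries labelled knockout and 15 and 55 in those labelled wild type (log2 fold change 2.94, edgeR quasi-likelihood test, adjusted p = 6.0e-07), although 3′ tags outside the deleted part would check nothing and Irf5 overlaps Tnpo3. Groups are therefore named by label throughout. All 7 T cell markers were detected in every library, at 1534 to 1743 UMIs per 1000000 summed, in 98.7% to 99.7% of cells. The female library labelled wild type stood apart, with 55.6% of its UMIs in cells against 83.2% to 89.2% in the others, and with erythroid markers (11 of 11 genes) at 1415 UMIs per 1000000 against 12.2 to 38.4. B cell markers summed to 80.5 and 168 UMIs per 1000000 in the libraries labelled knockout and 27.1 and 29.1 in those labelled wild type, myeloid markers to 2.92 and 42.0 against 3.23 and 6.12, NK markers to 7.20 and 13.9 against 8.37 and 10.6, and Cd8a with Cd8b1 to 8.96 and 10.3 against 7.86 and 7.90. The share of cells with a B cell marker UMI went the other way, at 10.28% and 12.41% (female and male labelled knockout) against 15.49% and 17.37%. Cells gated as B cells numbered 56 and 63 against 25 and 92 in the same order, out of the cell numbers above. Markers of regulatory T cells summed to 506 and 559 against 409 and 468.

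Nr4a1 and Nr4a3 were the most widely detected members 6 hours after stimulation, followed by Egr1 and then Nr4a2. To compare shares of cells at equal depth, every cell was thinned at random to 2000 UMIs. On this scale Nr4a1 was found in 39.8% (95% exact binomial interval 38.6 to 41.1) of cells in the female library labelled knockout, 41.8% (40.6 to 43.0) in the male library labelled knockout, 45.1% (42.8 to 47.4) in the female library labelled wild type and 40.9% (39.5 to 42.4) in the male library labelled wild type. Nr4a3 followed at 33.0%, 34.9%, 41.2% and 31.5% in the same order. In both, the female library labelled wild type was the highest, and the other 3 libraries lay within a few percentage points of each other. Intervals cover counting error only.

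Nr4a2 was the scarcest of its family, in 11.9%, 12.5%, 17.8% and 13.0% of cells in the order female and male labelled knockout, female and male labelled wild type. Egr1 was the most widely detected Egr member, in 18.3%, 20.8%, 21.5% and 19.8%. Egr3 was detected in 7.28%, 9.12%, 8.88% and 8.96% and Egr2 in 6.59%, 7.76%, 7.72% and 7.19%. Nab2 was detected in 8.73%, 9.95%, 8.43% and 9.18%, so that the ranges of Egr3 and Nab2 overlapped and their order differed between libraries. Without thinning the shares were higher, from 55.4% to 64.2% for Nr4a1 and from 13.1% to 20.9% for Egr3.

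**Figure D1:**
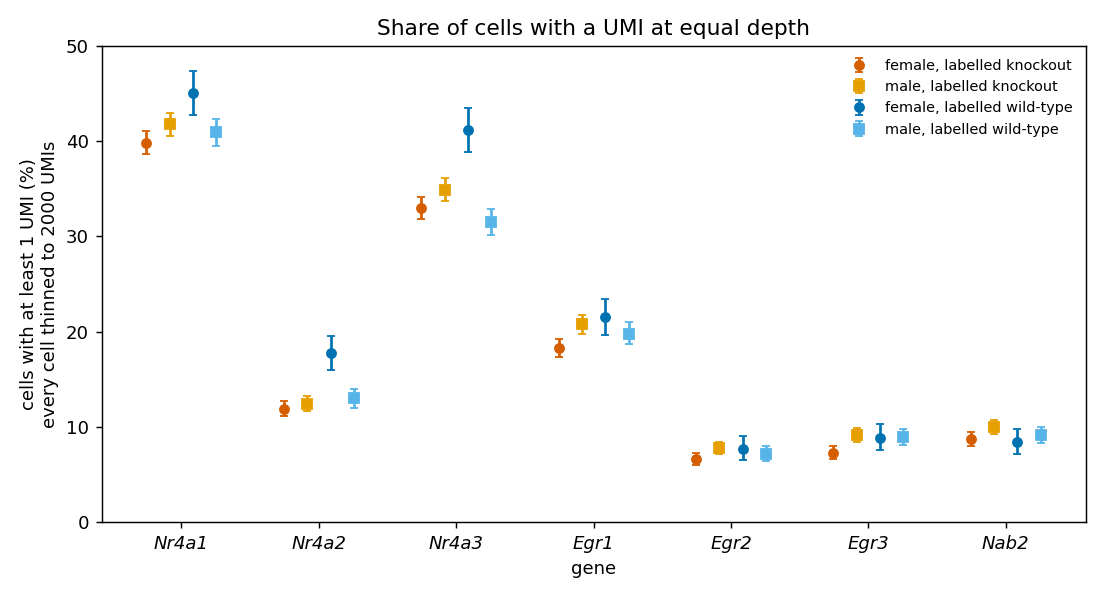
Share of cells with at least 1 UMI of each gene (vertical axis, percent) after thinning every cell to 2000 UMIs, by gene (horizontal axis). Points are the 4 libraries and bars are 95% exact binomial intervals, which cover counting error only; Nr4a1 runs from 39.8% to 45.1% and Egr2 from 6.59% to 7.76%.

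Members also differed in copies per positive cell. A cell with Nr4a1 held 2.73 to 3.14 UMIs of it on average over the 4 libraries at 2000 UMIs, one with Egr1 2.45 to 3.02 and one with Nr4a3 2.29 to 2.62. Egr3 was in fewer cells than Nr4a2, but its positive cells held 1.74 to 2.32 copies, above the 1.70 to 1.83 of Nr4a2 in 3 of 4 libraries. Egr2 (1.20 to 1.31) and Nab2 (1.16 to 1.24) were seen mostly as single molecules. The variance of Egr1 over its mean across cells (Fano factor) was 4.42 to 6.89, against 1.20 to 1.34 for Nab2, where 1 is expected of random counts at 1 common level.

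RNA free in solution also gives UMIs, so shares were set beside cells that should lack the gene and beside droplets with fewer than 200 UMIs. Among 26 cells gated as erythroid (median 14632 UMIs before thinning), 0 had Nr4a1, Nr4a2, Nr4a3, Egr2 or Egr3 after thinning, which allows shares of up to 13.2% (upper limit of the 95% exact interval). The shares of Nr4a1 and Nr4a3 were above that limit in all 4 libraries and that of Nr4a2 only in the female library labelled wild type, so Nr4a2 in the other 3, and Egr2 and Egr3 in all 4, could not be told apart from background by these cells. Egr1 was in 4 of the 26 (15.4%, interval 4.36 to 34.9) and Nab2 in 2 (7.69%, 0.946 to 25.1), intervals that hold the shares in all cells, so the same holds for Egr1 and Nab2. Within the T cells themselves, the least activated cells described below had lower shares, of 4.29% ± 0.85 for Egr1, 2.73% ± 0.45 for Nab2 and 0.986% ± 0.68 for Nr4a2 (SD, n = 4 libraries). Egr2 and Egr3 were also lower there, in 2.12% ± 0.32 and 3.08% ± 0.88 of these cells. In 236 cells gated as B cells (median 8190 UMIs), which can express these genes, Nr4a1 was in 15.3% and Egr3 in 5.08%. Levels in cells over those in droplets ranged from 0.991 for Nab2 in the female library labelled knockout to 2.02 for Nr4a2 in the female library labelled wild type.

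Within cells the 7 RNAs occurred together more often than their single shares would give, and the closest pairs were Nr4a1 with Nr4a3 and Egr1 with Egr3. At 2000 UMIs per cell, none of the 7 was seen in 39.4% to 45.1% of cells, at least 4 were seen in 10.8% to 14.0%, and all 7 in 0.138% to 0.285%. Correlations below are Pearson r across the cells of a library, of the natural log of 1 plus the thinned count, averaged over 4 libraries. Cells of a library share its preparation and differ in activation, so r is a description and carries no p, and it is lower for genes with few UMIs.

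Nr4a1 and Nr4a3 had the highest r of the 21 pairs in all 4 libraries (mean 0.61, 0.585 to 0.655). Of the cells with Nr4a1, 56.4% to 68.2% also had Nr4a3, and of those with Nr4a3, 73.0% to 74.7% had Nr4a1. Nr4a2 was joined to them more weakly, with r = 0.39 to Nr4a1 and 0.38 to Nr4a3. Of the Nr4a2-positive cells, 79.9% to 82.3% had Nr4a1.

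Egr1 and Egr3 came next (0.55, 0.493 to 0.601), along with the pair across families of Nr4a1 and Egr1 (0.54, 0.512 to 0.570), and these pairs took ranks 2 and 3 in all 4 libraries. Of Egr3-positive cells, 85.9% to 89.4% had Nr4a1, but of Nr4a1-positive cells only 16.2% to 19.3% had Egr3. Relative to the product of the single shares, Egr2 with Egr3 stood at 3.73 times (3.19 to 4.45), Egr1 with Egr3 at 3.54 times (3.23 to 3.91), Egr3 with Nab2 at 3.10 times and Egr1 with Egr2 at 3.01 times, against 1.76 times for Nr4a1 with Nr4a3, whose high shares bound the ratio. The order depends on the measure: by the odds ratio, which has no such bound, Egr1 with Egr3 was at 13.6, Nr4a1 with Egr3 at 12.3, Nr4a1 with Nr4a3 at 8.51 and Egr2 with Egr3 at 6.54 (means of 4 libraries). Nab2 had its highest ratio with Egr3 (3.10, 2.63 to 3.36) and its lowest r with Egr2 and Nr4a2 (both 0.13).

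**Figure D2:**
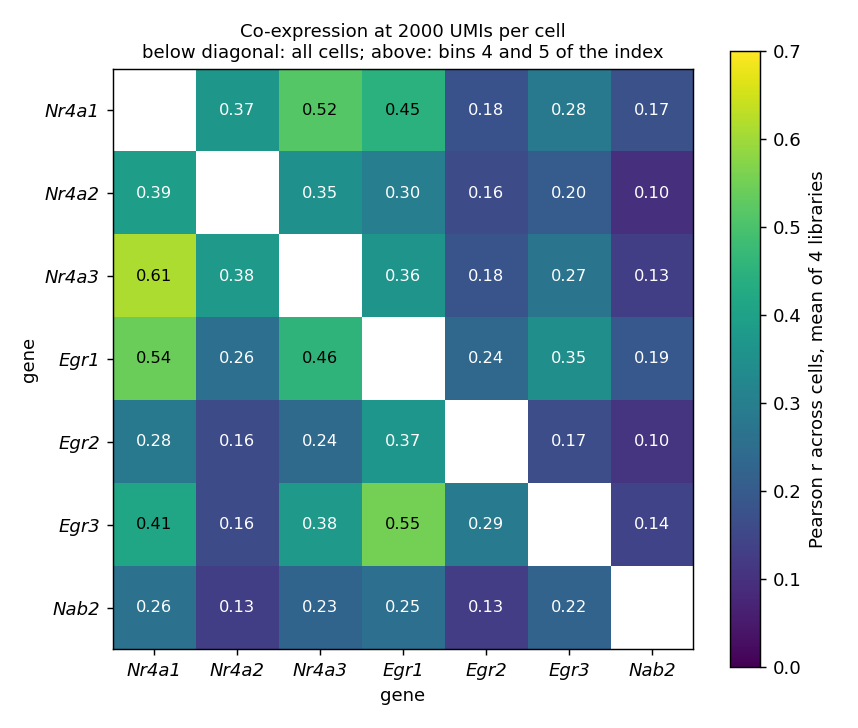
Mean over 4 libraries of Pearson r across cells of the log of 1 plus thinned counts, for each pair of genes (both axes). Below the diagonal all cells, above it the 2 most activated bins of the index; the pair Nr4a1 and Nr4a3 is highest in both, at 0.61 and 0.52, and Egr1 with Egr3 falls from 0.55 to 0.35.

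Outside the 7, the gene most like each of them over 4094 candidates, by median r over the 4 libraries, was Nfkbid in every case. Nfkbid encodes an atypical IκB protein that is induced by T cell receptor signalling. Its r was 0.585 with Nr4a1, 0.549 with Nr4a3, 0.484 with Egr1, 0.414 with Egr3, 0.315 with Nr4a2, 0.253 with Egr2 and 0.239 with Nab2. The next places were held by Cd69, an early activation receptor, and Kdm6b, a histone demethylase, for Nr4a1 (0.581 and 0.550), Nr4a3 (0.50 for Cd69 and 0.514 for Kdm6b) and Nab2 (0.218 and 0.220). Egr1 had Cd69 (0.468) and Junb (0.417), Egr3 had Cd69 (0.324) and Ier2 (0.319), Egr2 had Cd69 (0.232) and the phosphatase gene Dusp2 (0.222), and Nr4a2 had Kdm6b (0.298) and the adaptor gene Lcp2 (0.274).

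With 1 time point, decay in time was not measured. Cells were instead ordered, within each library, by how far activation had gone in the rest of their RNA. The activation index was the number of UMIs of 17 genes that rise on activation (among them Ncl, Npm1, Odc1, Slc7a5 and Il2ra) over that number plus the UMIs of 13 genes of resting T cells (among them Klf2, Ccr7 and Il7r), at 2000 UMIs per cell. None of the 7 is in either list. Each library was split into 5 equal bins, which are ranges of a score and not cell types, with 2 to 65 cells of a library tied with a bin edge. Median UMIs per cell before thinning rose from 3210.5 to 6005 in bin 1 to 6400 to 11909 in bin 5.

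The members separated along this order into those highest in bin 2 and lower afterwards and those that held their level. Egr3 was highest in bin 2 in each of the 4 libraries, at 1.45, 1.18, 2.51 and 1.82 UMIs per 10000 in the order female and male labelled knockout, female and male labelled wild type. In bin 5 it was at 0.393, 0.608, 0.387 and 0.570. Every library was lower in bin 5, by -1.80 ± 0.72 on the log2 scale (SD, n = 4).

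Egr1 also was highest in bin 2 in all 4 libraries, at 3.82, 3.47, 6.86 and 4.26 UMIs per 10000, and stood at 1.94, 2.27, 2.10 and 1.90 in bin 5. The log2 ratio of bin 5 over bin 2 was -1.12 ± 0.46, lower in all 4 libraries. The share of cells with Egr1 hardly moved between these bins (24.1% ± 2.5 and 22.5% ± 2.1), while the copies in a positive cell went from 3.78 ± 0.91 to 1.83 ± 0.10. In bin 1 only 4.29% of cells had Egr1, but these held 7.05 ± 0.36 copies, the highest of any bin, and Egr3-positive cells there held 3.92 ± 0.58. With cells carrying B, NK, myeloid or erythroid markers left out, Egr1-positive cells of bin 1 held 6.63 to 7.50 copies.

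Nab2 had the next lowest ratio of bin 5 over bin 2 (-0.62 ± 0.41, lower in 4 libraries). Its level was highest in bin 2 in the libraries labelled wild type (0.854 and 0.865 UMIs per 10000) and in bin 3 in those labelled knockout (0.664 and 0.757). Egr2, unlike Egr1 and Egr3, kept its level: 0.570, 0.466, 0.661 and 0.592 in bin 2 and 0.453, 0.608, 0.594 and 0.493 in bin 5. The ratio was -0.09 ± 0.33, with the male library labelled knockout higher in bin 5 and the other 3 lower.

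Nr4a1 rose from 1.52, 1.02, 1.71 and 0.564 UMIs per 10000 in bin 1 to 6.42, 6.30, 9.52 and 7.38 in bin 2, and was still at 7.19, 7.34, 7.54 and 6.14 in bin 5. Nr4a3 rose likewise, to 4.16, 4.07, 7.30 and 4.47 in bin 2 and 5.07, 5.43, 5.88 and 4.23 in bin 5. Their ratios of bin 5 over bin 2 were -0.05 ± 0.29 and 0.08 ± 0.33, and for both genes the libraries labelled knockout were higher in bin 5 and those labelled wild type lower. Nr4a2 was the only member higher in bin 5 than in bin 2 in all 4 libraries (0.91 ± 0.44), going from 0.635, 0.733, 1.71 and 0.969 to 1.62, 1.70, 2.32 and 1.5.

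Bin 5 as a percentage of a gene's highest bin put the members in the order Egr3 (31.4 ± 15.0), Egr1 (47.8 ± 14.4), Nab2 (62.6 ± 13.8), Egr2 (88.0 ± 8.7), Nr4a1 (88.8 ± 9.0), Nr4a3 (92.9 ± 8.8) and Nr4a2 (94.9 ± 7.5) (SD, n = 4 libraries). Egr3, Egr1 and Nab2 each differed from the next by about their SD, Nab2 differed from Egr2 by more than either SD, and the last 4 did not differ beyond their spread. Jun, another immediate early gene, was highest in bin 1 in all 4 libraries and stood at 10.6% ± 5.0 of that level in bin 5. Other immediate early genes kept more, with Fos at 67.0% ± 11.0 of its highest bin, Junb at 61.1% ± 7.0 and Ier2 at 71.7% ± 7.5, and Junb and Ier2 were highest in bin 2 in all 4 libraries.

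**Figure D3:**
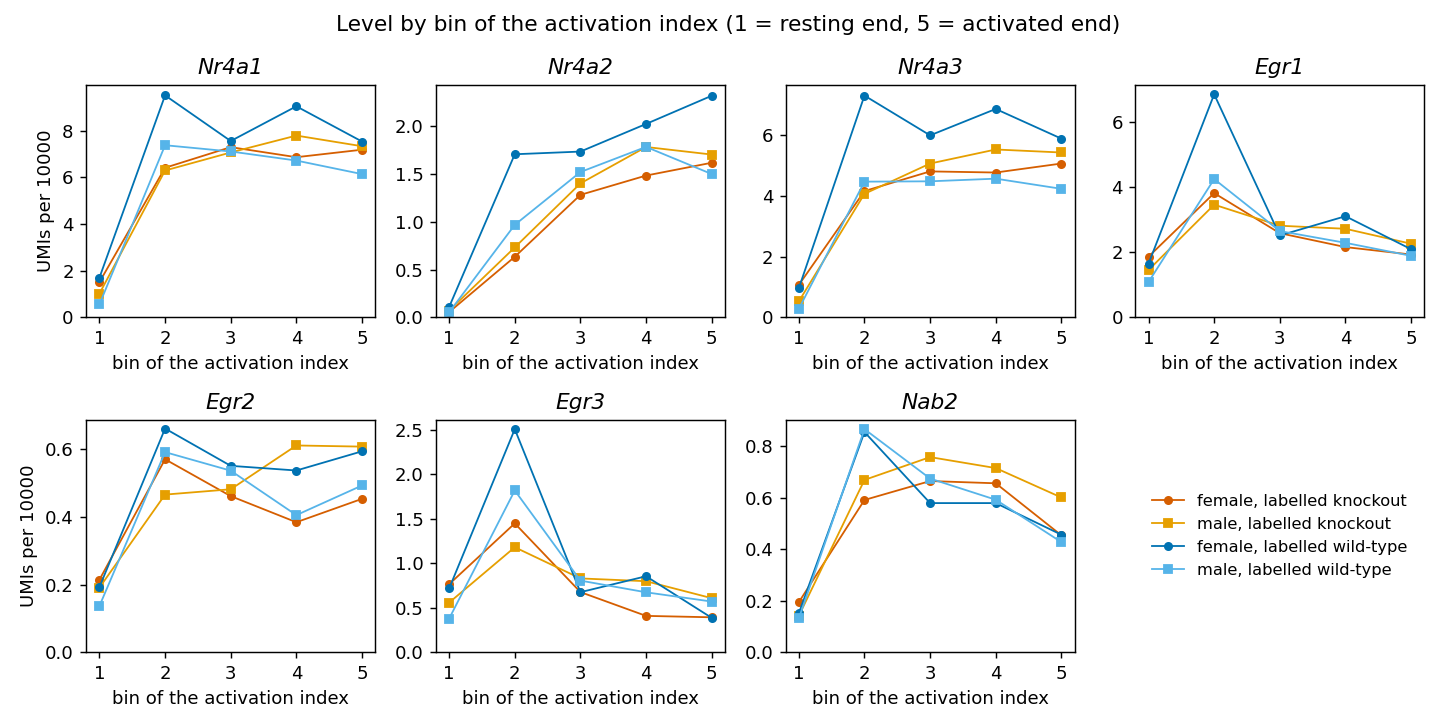
UMIs per 10000 (vertical axes, each from 0) in 5 equal bins of cells ordered by the activation index (horizontal axes, 1 the resting end), 1 panel per gene and 1 line per library. Egr1 and Egr3 are highest in bin 2 in all 4 libraries and lower in bin 5, while Nr4a2 is higher in bin 5 than in bin 2 in all 4.

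The balance between the families moved in the same direction. Egr1, Egr2 and Egr3 made up 55.3% ± 7.0 of the UMIs of both families in bin 1, 33.8% ± 1.6 in bin 2, 22.1% ± 1.8 in bin 3, 20.1% ± 1.3 in bin 4 and 18.1% ± 1.8 in bin 5 (SD, n = 4). It was lower in each bin than in the one before in all libraries except the female one labelled wild type, where bins 3 and 4 stood at 19.7% and 20.1%. The value of bin 1 rests on few cells, since 89.2% ± 1.8 of its cells had RNA of neither family. There, 5.83% ± 1.9 of cells had Nr4a only and 1.545% ± 0.24 Egr only. Over all cells, 21.8% ± 1.7 had RNA of both families, 30.8% ± 1.9 of Nr4a only, 3.35% ± 0.53 of Egr only and 44.0% ± 2.9 of neither. An Egr RNA without any Nr4a RNA was thus uncommon: 85.2% to 89.5% of Egr-positive cells had an Nr4a RNA, whereas 39.0% to 43.1% of Nr4a-positive cells had an Egr RNA.

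**Figure D4:**
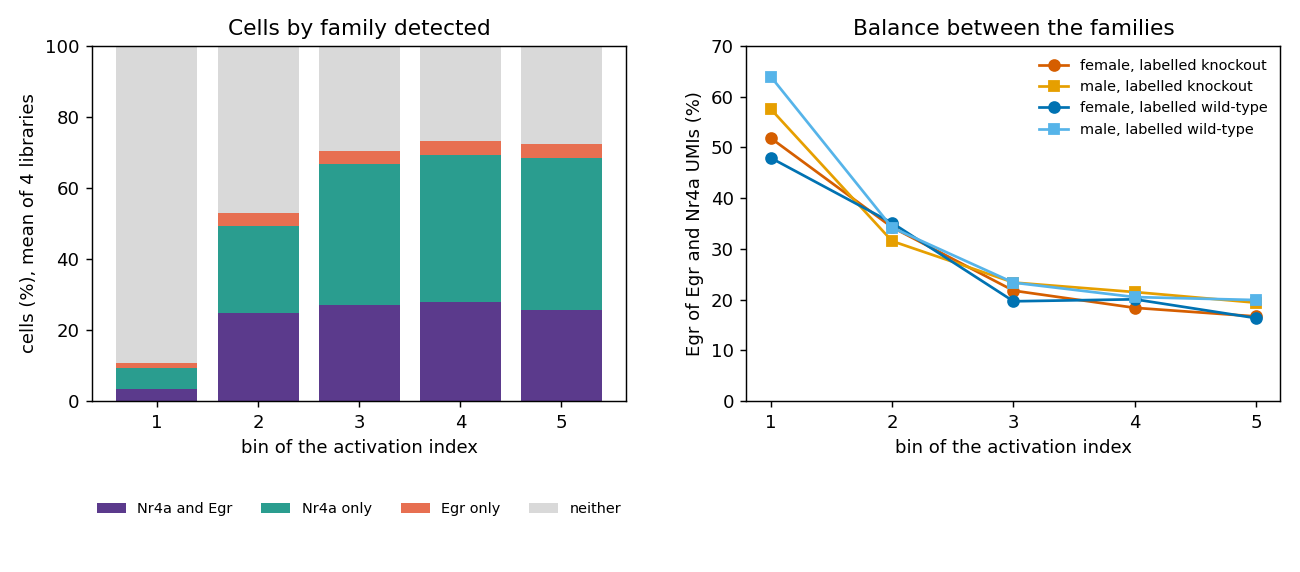
Left, mean over 4 libraries of the share of cells (percent) with RNA of both families, of 1 or of neither, in each bin of the activation index; right, Egr1, Egr2 and Egr3 UMIs as a percentage of Egr and Nr4a UMIs, 1 line per library. The Egr percentage goes from 55.3 in bin 1, where 89.2% of cells had neither family, to 18.1 in bin 5. Nr4a without Egr makes up 42.8% of cells in bin 5.

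Which members were retained together was also seen among the cells richest in Egr1, those with at least 5 Egr1 UMIs at 2000, a threshold chosen after the data were seen. Such cells in bins 1 and 2 (103, 94, 46 and 70 cells) had Egr3 at 17.5, 14.8, 18.4 and 15.4 UMIs per 10000, and those in bins 3 to 5 (72, 70, 27 and 44 cells) at 5.14, 6.57, 4.44 and 6.48. Nr4a2 ran the other way, at 1.26, 1.22, 3.15 and 2.14 in the cells of bins 1 and 2 and 5.63, 5.64, 7.41 and 7.16 in those of bins 3 to 5. The libraries' values did not overlap for either gene. The share of all genes without overlap between these sets was not counted, so nothing is drawn from a lack of overlap here. Egr2 (4.23 ± 0.62 and 2.40 ± 0.55) and Egr1 itself (47.0 ± 4.4 and 30.9 ± 1.3) were also lower in the cells of bins 3 to 5 without overlap, so these sets are not matched on Egr1 and Egr2 did not keep its level among them. Both sets were rich in Cd69, at 52.0 ± 3.3 and 46.2 ± 2.5, against 2.85 and 16.3 over all cells of bins 1 and 2. The set of bins 1 and 2 was thus low on the index but not low in this activation gene. Nr4a3 was alike in both sets, at 19.7 ± 2.8 and 18.2 ± 1.3 (SD, n = 4). Nr4a1 was lower in bins 3 to 5 within each library, at 31.1 ± 2.3 and 26.7 ± 2.6, although the libraries' ranges overlapped. Nab2 was at 2.32 ± 0.62 and 2.12 ± 0.47. In bins 4 and 5 alone, the r of Nr4a1 with Nr4a3 was 0.52 and that of Nr4a1 with Egr1 0.45, while that of Egr1 with Egr3 was 0.35. The odds ratio of detection gave another order in these bins, with 7.03 for Egr1 with Egr3, 5.00 for Nr4a1 with Egr1 and 4.69 for Nr4a1 with Nr4a3, so which pair stays closest depends on the measure.

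Cells with cytokine RNA differed in which members they carried. Cells with Tnf RNA (240 to 759 per library) had all 7 members higher than cells without it, from 2.65 times for Nab2 (2.31 to 3.41) to 4.59 times for Egr3 (3.72 to 5.36). Cells with Il2 RNA (90 to 328) had Nr4a2 at 1.55 times (1.32 to 1.72) and Nr4a3 at 1.39 times (1.16 to 1.64), while Egr3 was below cells without Il2 in every library (0.851, 0.803 to 0.937). Egr2 had the highest mean ratio in the Il2 cells, 1.665 times (0.985 to 2.15), so the Egr genes did not move as 1 family. In cells with Ccl4 RNA (66 to 189), Nr4a2 was at 2.43 times (1.90 to 3.14), Egr2 at 1.685 (1.36 to 1.99) and Egr3 at 1.02 (0.906 to 1.12). In cells with Foxp3 RNA (19 to 221), the regulatory T cell factor, Nr4a3 stood at 1.02 times (0.759 to 1.27) and Nr4a2 at 0.367 times, between 0 and 0.742. These ratios are descriptions over cells at equal depth, and Tnf, Il2 and Ccl4 are activation genes themselves.

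Between genotypes, none of the 7 passed the test over summed UMIs. All 7 had negative fold changes, which were larger in the female pair of libraries. UMIs were summed over the cells of each library and tested with edgeR's quasi-likelihood test with sex as a term. At an adjusted p under 0.05, 0 of the 7 were called, against 1.21% of the 12855 genes tested in either direction and 0.397% lower, and 2 had an unadjusted p under 0.05, against 3.41% of genes that were lower at that level. The median log2 fold change of the 7, knockout over wild type by label, was -0.17, beside 0.0002 over all genes tested. In bulk sums, fewer expressing cells and less RNA per cell cannot be told apart.

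Nr4a2 stood at 99.3 and 117 CPM (counts per 1000000 UMIs, scaled by TMM factors) in the female and male libraries labelled knockout and 159 and 118 in the female and male libraries labelled wild type. The female library labelled wild type was well above the others, and the male library labelled wild type exceeded the male one labelled knockout by little (log2 fold change -0.34, SE 0.13, edgeR adjusted p = 0.386). Egr3 was at 64.0, 72.8, 89.7 and 75.0 CPM, with both libraries labelled knockout below both labelled wild type (log2 fold change -0.26, SE 0.10, edgeR adjusted p = 0.452). Egr1 was at 204, 229, 275 and 228 CPM (-0.21, SE 0.10, edgeR adjusted p = 0.655), and its groups overlapped.

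Nr4a1 had 538, 553, 652 and 560 CPM (log2 fold change -0.15, SE 0.09, edgeR adjusted p = 0.779). Nr4a3 had 377, 401, 519 and 369 CPM (-0.17, SE 0.11, edgeR adjusted p = 0.843). Nr4a1 did not overlap between groups, by a margin smaller than the gap between the libraries labelled wild type, and Nr4a3 did. Egr2 had 39.7, 45.9, 46.9 and 40.3 CPM (-0.02, SE 0.10) and Nab2 48.3, 56.2, 57.3 and 57.2 CPM (-0.13, SE 0.09). Nr4a2, Egr3 and Nab2 did not overlap between groups either. The share of all genes without overlap in CPM was not counted, so nothing is drawn from this.

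For every member, CPM was highest in the female library of the wild-type label, as it was for 31.1% of all genes tested. Within the female pair the log2 differences were -0.68 for Nr4a2, -0.49 for Egr3, -0.46 for Nr4a3, -0.43 for Egr1, -0.28 for Nr4a1, -0.25 for Nab2 and -0.24 for Egr2. Within the male pair they were -0.02, -0.04, 0.12, 0.01, -0.02, -0.02 and 0.19 in the same order of genes, so no member was more than 0.04 lower there. These pairs are 1 library against 1 and have no test. The same female library has the erythroid markers and the low share of UMIs in cells given above, and their part in these differences was not tested.

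With 61 to 140 cells per library carrying markers of other cell types left out, Nr4a2 (log2 fold change -0.37, edgeR adjusted p = 0.00256) and Egr3 (-0.28, edgeR adjusted p = 0.0492) passed the test as lower in the libraries labelled knockout, 2 of 7 against 0.93% of 12582 genes lower at that level. The other 5 did not pass, and no member passed in any other setting of the processing that was tested. The fold changes of Nr4a2 and Egr3 were close to those over all cells (-0.34 and -0.26). Genes called in either direction numbered 362 in this setting, against 155 over all cells. Shares of cells at equal depth gave no call either, since 2 libraries against 2 cannot go below p = 0.33 in a two-sided exact permutation test. The difference in share was -3.18 percentage points for Nr4a2 (exact permutation p = 0.33), or -0.80 without the female library labelled wild type, -2.38 for Nr4a3 (p = 1.0, exact permutation test) and -0.71 for Egr3 (p = 1.0, exact permutation test).

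**Figure D5:**
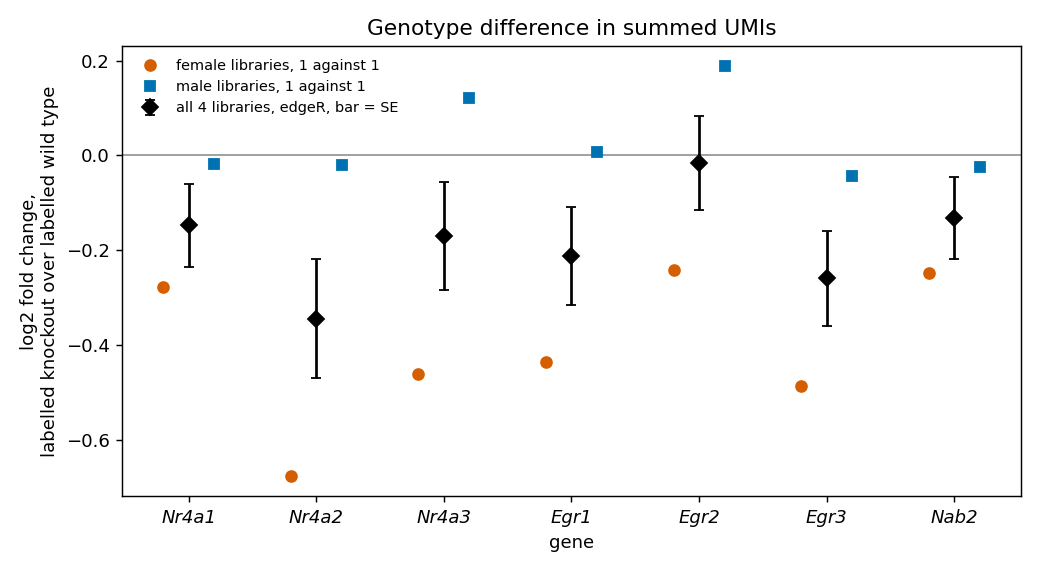
Log2 fold change of summed UMIs, labelled knockout over labelled wild type (vertical axis), by gene (horizontal axis). Diamonds are the edgeR estimates over 4 libraries with SE bars, circles the female pair and squares the male pair, 1 library against 1; the female pair is below 0 for all 7 genes and the male pair lies between -0.04 and 0.19.

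Along the activation index, the difference between genotypes was seen in bin 2. There all 7 members were lower in both libraries labelled knockout than in either labelled wild type, against 11.0% of 6333 genes with at least 100 UMIs in that bin. The order thus also held between the male libraries alone. Members occur in the same cells, so the 7 are not separate observations. Nr4a1 was at 6.42 and 6.30 UMIs per 10000 against 9.52 and 7.38, and Egr3 at 1.45 and 1.18 against 2.51 and 1.82. The count of members lower without overlap was 0 of 6 in bin 1 (10.7% of genes), 2 of 7 in bin 3 (9.84%), 1 of 7 in bin 4 (9.06%) and 0 of 7 in bin 5 (10.4%). In bin 4, Nab2 was higher without overlap (0.655 and 0.714 against 0.578 and 0.592). More genes were higher than lower without overlap in the libraries labelled knockout in every bin, 1769 against 694 in bin 2. The difference between bins was not tested, and the bins rest on each library's own order of cells.

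Between the sexes, in the same fit, 0 of the 7 were called, against 1.31% of genes tested, and 0 had an unadjusted p under 0.05. Nr4a3 had the lowest fold change, male over female (log2 -0.20, edgeR adjusted p = 0.783), and Nab2 the highest (0.11). Within the libraries labelled knockout all 7 were higher in the male and within those labelled wild type all 7 were lower, 1 library against 1.

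Of the other genes of the early response, a list of 35 with Fos, Jun, Dusp, Klf and Ier family members, 1 was called between genotypes. Dusp4, a MAP kinase phosphatase, was higher in the libraries labelled knockout (13.8 and 13.2 CPM against 8.65 and 9.25, log2 fold change 0.58, edgeR adjusted p = 0.0174), none was lower, and the list's median log2 fold change was -0.0018. That is 1 of 35 higher against 0.809% of all genes tested, and 7 of 35 had an unadjusted p under 0.05 against 1028 of 12855. Of 29 tested genes among 30 listed as linked to Nr4a or Egr factors in T cells, 3 were higher and 0 lower, against 0.809% and 0.397% of all genes tested, with a median of 0.03, and 12 had an unadjusted p under 0.05. They were Foxp3 (log2 fold change 1.15, edgeR adjusted p = 0.000433), Ikzf2 (0.87, edgeR adjusted p = 0.000144) and Ctla4 (0.62, edgeR adjusted p = 0.00219), which are genes of regulatory T cells. The sum of 5 regulatory T cell markers given above holds these 3 genes, so it is not a separate observation. Without thinning, a UMI of any of the 5 was in 67.93% and 69.95% of cells in the female and male libraries labelled knockout. In those labelled wild type, with more UMIs per cell, it was in 76.63% and 73.25%. At 2000 UMIs, Foxp3 RNA was found in 199 of 6178 and 221 of 6543 cells of the female and male libraries labelled knockout. In those labelled wild type it was found in 19 of 1814 and 92 of 4565. Whether a difference in the number of regulatory T cells accounts for the higher values of these 3 genes was not tested.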

How the data were processed

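The 4 libraries were analysed from the raw UMI count matrices that the authors deposited, 1 whole number per gene and barcode, unfiltered for cells. Per the submitters' processing notes the reads were processed with Cell Ranger 6.0.2 against mm10, and per the file headers the matrices carry a Cell Ranger format version of 4; how strand was used is not given in the sources used here. Library totals ran from 28841161 to 55850754 UMIs.

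Cells were kept at 2000 or more UMIs, 500 or more genes and at most 10% mitochondrial UMIs, and doublets were not removed. For shares, correlations and bins each cell was thinned to 2000 UMIs with a fixed seed. UMIs were summed per library and tested with edgeR 4.0.16 (R 4.3.3, TMM, filterByExpr, quasi-likelihood F test, model with sex and genotype, Benjamini-Hochberg over 12855 genes, threshold 0.05), with DESeq2 1.42.0 as an alternative. That model leaves 1 residual degree of freedom. Fold changes within 1 sex or genotype used a prior count of 2. CPM values are TMM-scaled. In simulated data 53.3% of genes changed by 0.5 on the log2 scale (12611 genes tested) and 83.1% of those changed by 1 (12647 tested) were recovered for the genotype comparison, with 9.57% and 7.43% of calls false. The simulated counts were drawn with the spread fitted by the model and without a sex difference, so these figures hold only if that spread is right. The fold changes of the 7 members, at most 0.34 in size, were below the smallest change simulated. Python 3.11.15, numpy 2.4.6 and scipy 1.17.1 were used.

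The 7 members, the early response and downstream lists, the index lists and the cell markers were chosen with earlier results of these data known. Genes named were the 7 members, Irf5, the called genes of both lists (at most 5 per list) and the 3 genes most correlated with each member among those with a UMI in at least 5% of thinned cells of every library. Jun, Fos, Junb and Ier2 in the bins, the Egr1-rich cells and the Tnf, Il2, Ccl4 and Foxp3 cells are descriptions. Comparisons of the sexes within each genotype, and Egr1 by bin with other cell types left out, were added after the data were seen. Promoter windows are from RefSeq (GRCm38.p6). Any window of a member on chromosome 18 (Egr1) was left out, and windows of 5 of the 7 members were used.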

Additional observations from a re-analysis of the deposited data

Results flagged for a closer look

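In 3 members the female and male libraries differed in opposite directions between the labels. The log2 difference, knockout over wild type by label, was -0.46 in the female pair and 0.12 in the male pair for Nr4a3, -0.43 and 0.01 for Egr1, and -0.24 and 0.19 for Egr2. Each value is 1 library against 1, and the difference between the sexes was not tested. The female library labelled wild type, with the highest CPM for all 3, also held erythroid markers at 1415 UMIs per 1000000.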

How the results depend on the processing

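The number of genes called between genotypes (155) was 20 without the filter on low counts, 362 without cells of other types, 46 without likely doublets, 64 at equal depth and cell number, 254 with cells from 1000 UMIs, 7 without the sex term, 37 in bins 4 and 5, 47 with DESeq2, and 47, 53, 117 and 43 without the female or male library labelled knockout and the female or male one labelled wild type (no sex term). The number called between the sexes (168) was 12, 290, 24, 102 and 277 under the first 5 of these and 33 with DESeq2. Without cells of other types, Nr4a2 (-0.37) and Egr3 (-0.28) passed between genotypes, and no member passed in any other setting.

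Directions that turned between genotypes were those of Egr2 at 4000 or more UMIs (0.043), in bins 4 and 5 (0.071) and in males (0.19), and of Nr4a3 (0.12) and Egr1 (0.0078) in males. With a library left out the range was -0.42 to 0.076 for Nr4a3, positive without the female library labelled wild type, and -0.13 to 0.087 for Egr2, positive without either female library (0.078 without the one labelled knockout). Between the sexes, within the libraries labelled knockout, Nr4a1 (0.040), Nr4a2 (0.23), Nr4a3 (0.090), Egr1 (0.17) and Egr3 (0.18) turned, and within those labelled wild type Egr2 (-0.22) and Nab2 (-0.0031). At 4000 or more UMIs Egr1 (0.0033), Egr3 (0.030) and Egr2 (-0.019) turned, and Egr2 also without other cell types (-0.022), without doublets (-0.0042) and with DESeq2 (-0.0001).

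Differences in share turned at 4000 UMIs per cell for Nr4a1 (3.97), Nr4a3 (2.89), Egr1 (0.612), Egr2 (1.74) and Nab2 (-0.528), at 1000 for Egr2 (0.0369) and Nab2 (-0.433), and without thinning for Nab2 (-6.92). With a library left out they ran from -4.29 to -0.118 for Nr4a1, -5.56 to -0.797 for Nr4a2, -7.22 to 2.48 for Nr4a3, -2.36 to 0.134 for Egr1, -0.864 to 0.313 for Egr2, -1.63 to 0.207 for Egr3 and -0.082 to 1.14 for Nab2. The r of Nr4a1 with Nr4a3, Nr4a1 with Egr1 and Egr1 with Egr3 was 0.694, 0.609 and 0.613 at 4000 UMIs and 0.516, 0.448 and 0.349 in bins 4 and 5. Bin 5 as a percentage of the highest bin was 98.3 for Nr4a1 with the rising genes alone as index, 76.3 for Egr1, 64.7 for Egr3 and 77.8 for Nab2 with the resting genes alone, and 72.8 for Egr1 and 49.6 for Egr3 in 3 bins.

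Where not stated, the cause was not tested. No paired analysis was possible because the labels carry no replicate numbers that pair libraries other than by sex, which is already a term of the main model. Depth limits Egr2, Egr3 and Nab2, seen in under 10% of cells at 2000 UMIs.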
